A study of Rattus norvegicus with 6 samples.

Results

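Ligand-activated nuclear receptors and the aryl hydrocarbon receptor let the liver sense bile acids, oxysterols, fatty acids, steroids and foreign chemicals. Their transcripts were measured here in normal and fibrotic rat liver. The members were the rows of the expression table whose gene symbol was Nr1h4, Nr1h3, Nr1i2, Nr1i3, Ppara, Pparg, Ppard, Rxra, Esr1 or Ahr, which gave 10 of 19616 genes. All 10 passed the filter on low values described with the tests. Liver came from male Sprague-Dawley rats in 2 groups of 3, with 1 library per rat. The fibrosis group (FL, rats FL2, FL5 and FL12) had received carbon tetrachloride, a solvent toxic to hepatocytes, in an equal volume of olive oil. It was injected intraperitoneally at 2 mL/kg, 2 times per week for 5 weeks. The control group (CL, rats CL5, CL6 and CL7) had received the same volume of olive oil alone. Values of a gene are always listed in this order of rats, CL5, CL6, CL7, FL2, FL5, FL12. Total RNA of whole liver was sequenced after removal of ribosomal RNA, so each value is an average over all cells of the tissue. Values are FPKM, sequenced fragments scaled by transcript length and by each library's mapped fragments, which allow levels to be compared between genes of different length. FPKM summed over all genes to 309425, 340467 and 315259 in CL rats 5, 6 and 7 and to 309226, 272350 and 272110 in FL rats 2, 5 and 12.

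The labelled tissue was checked with 10 hepatocyte markers. Their summed level was 52108, 49711 and 50201 FPKM in CL rats 5, 6 and 7 and 42403, 44121 and 42660.4 FPKM in FL rats 2, 5 and 12, with albumin (Alb) the most abundant and no marker at 0. All 6 libraries thus held hepatocyte transcripts at high levels, and every CL sum was above every FL sum. The sums without Alb, chosen after seeing the data, overlapped, at 18715, 18279.9 and 18209.5 FPKM in CL and 18254, 19069 and 17451 FPKM in FL. Of the 10 markers, 0 passed the test in either direction in limma, and 1 was higher and 0 lower at an unadjusted p under 0.05. Yet the groups did not overlap for 5 markers with FL lower (Alb, Ttr, Apob, Hnf4a and Ass1) and for 2 with FL higher (Apoa1 and Tf). Among all genes tested, 4.78% were apart with FL lower and 35.7% with FL higher. Very abundant genes get wide errors in this test, as for Alb, with a log2 difference of -0.38 (SE 0.98). The lack of calls therefore does not show that marker levels were unchanged. In 4 of 14 alternative settings Apoa1 was called higher. These were a filter at a mean of 1 FPKM, no trend, a robust prior and the fit without FL2. The median difference of the 10 markers, -0.21, was -0.43 with median scaling and turned positive, to 0.04, with quantile normalization.

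Nuclear receptors are transcription factors with a pocket for a small lipophilic ligand. Most of the receptors described here bind DNA as pairs with a retinoid X receptor such as Rxra, whereas Esr1 pairs with itself and Ahr, a receptor of a different protein family, pairs with Arnt. In liver, Nr1h4 (FXR) senses bile acids and restrains their synthesis, Nr1h3 (LXR alpha) senses oxysterols and controls cholesterol export and lipogenesis, Nr1i2 (PXR) and Nr1i3 (CAR) induce enzymes and transporters that clear drugs, Ppara drives fatty acid oxidation during fasting, and Ahr induces enzymes that metabolise planar aromatic compounds.

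Of the 10 receptors, 2 fell in FL, Ppard and Esr1, and 0 rose. Differences are FL minus CL on log2(FPKM + 0.1), tested with limma over the 14864 genes whose mean over the 6 rats reached 0.1 FPKM, and p-values were adjusted over all of them by the Benjamini-Hochberg method. An adjusted p under 0.05 was called. Among all genes tested, 16.9% were called higher in FL and 1.94% lower. The counts of each gene list below can be set beside the same shares. With a difference of at least 2-fold required as well, the called receptors were 0 higher and 1 lower, Ppard, against 9.29% and 0.935% of all genes. At an unadjusted p under 0.05, 0 receptors were higher and 3 lower, against 31.5% and 4.04% of all genes. The median difference of the receptors was 0.04, against 0.29 over all genes tested. All 3 FL rats lay above all 3 CL rats for 1 receptor, Nr1i2, and below them for 2, Ppard and Esr1, where 35.7% and 4.78% of all genes tested did so.

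FPKM is relative to each library's total, and more genes were called higher than lower, 2518 against 288. With median scaling the split was 1301 against 533, and with quantile normalization 784 against 532. The median difference of all genes moved from 0.29 to 0.08 and -0.04 under these scalings, so the called receptors are also set against that median. The median of the receptors moved from 0.04 to -0.18 and -0.02. No direction is therefore given for the receptors as a family, and the directions of Nr1h4, Nr1h3, Nr1i2, Ppara and Rxra turn with median scaling.

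**Figure D1:**
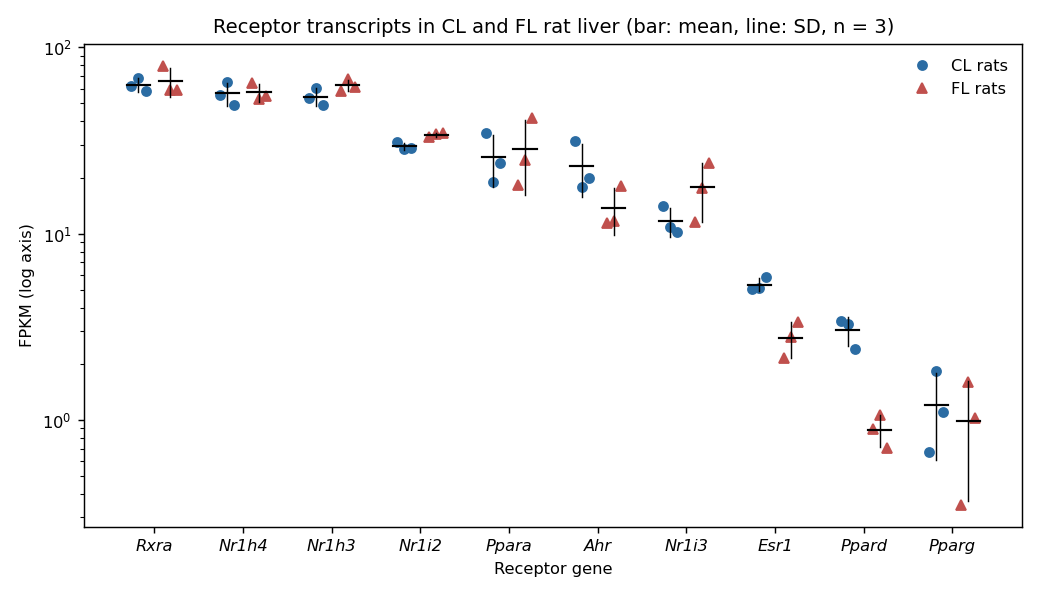
FPKM of the 10 receptors on a log axis, with a point for each of 3 CL rats (circles) and 3 FL rats (triangles), the group mean as a bar and the SD as a line. The CL and FL points are apart for Nr1i2, with FL above, and for Esr1 and Ppard, with FL below, and they overlap for the other receptors.

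The receptors differed widely in level. In CL liver the mean was highest for Rxra, the shared partner, at 62.9 FPKM, above 96.5% of protein-coding genes tested. Nr1h4 at 56.6 FPKM and Nr1h3 at 54.4 FPKM followed, and the ranges of these 3 genes overlapped. Next came Nr1i2 at 29.5, Ppara at 25.8 and Ahr at 23.1 FPKM, each overlapping the next. Nr1i3 at 11.7, Esr1 at 5.33, Ppard at 3.03 and Pparg at 1.2 FPKM came last, with ranges that did not overlap their neighbours. Pparg lay above 31.6% of protein-coding genes tested.

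In FL liver the leading 3 genes were again Rxra, Nr1h3 and Nr1h4, at mean levels of 65.8, 62.5 and 57.5 FPKM, with overlapping ranges. Nr1i3 at 17.7 FPKM stood above Ahr at 13.7 FPKM in this order, but their ranges overlapped. Ppard came last at 0.887 FPKM, with a range that overlapped that of Pparg at 0.99 FPKM. The 10 receptors summed to 291, 281 and 248 FPKM in the CL rats and to 280.5, 273 and 299 FPKM in the FL rats, and these sums overlapped. The spread between rats was smallest for Nr1i2, with a coefficient of variation of 4.48% in CL and 2.35% in FL. It was largest for Pparg, at 49.2% and 62.7%.

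Ppard, a fatty acid receptor found in most cell types, was at 3.41, 3.27 and 2.4 FPKM in CL rats 5, 6 and 7 and at 0.89, 1.06 and 0.71 FPKM in FL rats 2, 5 and 12. Every FL rat was below every CL rat, and the highest FL value was under the lowest CL value. The group levels were 3.03 ± 0.547 FPKM in CL and 0.887 ± 0.175 FPKM in FL (mean ± SD, n = 3), and the log2 difference was -1.66 (SE 0.22, adjusted p = 0.00456), a fold of 0.316 on that scale, which understates the change of genes at low levels. Relative to the median of all genes the difference was -1.95. The call was kept in 14 of 14 alternative settings, and the difference was -1.09 with a pseudocount of 1. In bulk tissue, fewer cells of a type and less RNA per cell cannot be told apart, and that holds for each receptor described here.

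Ppara was the most abundant PPAR gene in every rat. Its level was 10.2, 5.8 and 9.92 times that of Ppard in CL rats 5, 6 and 7 and 20.6, 23.5 and 59.2 times in FL rats 2, 5 and 12, and these ratios did not overlap between groups. Ppara made up 89.5%, 78.8% and 87.2% of the summed FPKM of the 3 PPAR genes in the CL rats and 93.7%, 90.4% and 96.0% in the FL rats. The FL shares were above the CL shares, FL5 by a small margin over CL5. Both measures include the Ppard values already called, and Ppara overlapped between the groups, so neither is a separate result.

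The 3 genes most like Ppard over the 6 rats, among 10534 genes averaging 1 FPKM or more, were Dpys with a Pearson r of 0.995, Gabarapl1, an autophagy gene, with 0.995 and Cyp2d4, a P450 gene, with 0.994. Dpys, which encodes a pyrimidine-degrading enzyme, was at 101, 102 and 89.6 FPKM in the CL rats and at 68.0, 71.8 and 66.6 FPKM in the FL rats. In these genes, as in Ppard, CL7 had the lowest CL value and FL12 the lowest FL value. The 6 points come from 2 groups that stand apart, so the r describes a shared group difference, and 6 genes had an r above 0.99.

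Esr1, the estrogen receptor alpha gene, was at 5.04, 5.12 and 5.83 FPKM in CL rats 5, 6 and 7 and at 2.14, 2.8 and 3.35 FPKM in FL rats 2, 5 and 12. The groups did not overlap, and FL2 was the lowest rat and CL7 the highest. The group levels were 5.33 ± 0.435 FPKM in CL and 2.76 ± 0.606 FPKM in FL (mean ± SD, n = 3). The log2 difference was -0.94 (SE 0.18, adjusted p = 0.0131), just under a 2-fold change, and -1.23 relative to the median of all genes. The call was lost without CL7, at an adjusted p of 0.0593 in a range of 0.0075 to 0.0593 over 14 alternatives, and the other 13 kept it. The genes most like Esr1 were Zbtb16 (r 0.991), Zmiz2 (r 0.987) and Tex2 (r 0.982). Zbtb16, a zinc finger transcription factor gene, was at 16.4, 15.7 and 16.1 FPKM in the CL rats and at 5.29, 7.06 and 9.14 FPKM in the FL rats. Here too FL2 had the lowest value and the groups did not overlap.

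Ahr was at 31.5, 17.8 and 20.0 FPKM in CL rats 5, 6 and 7 and at 11.4, 11.6 and 18.1 FPKM in FL rats 2, 5 and 12. CL5 was the highest rat, FL2 and FL5 were the lowest, and FL12 lay just above CL6, so the groups overlapped. On the log2 scale the difference was -0.74 (SE 0.25, adjusted p = 0.0796) with 95% limits of -1.32 to -0.15, and Ahr did not pass the test. It passed with median scaling, at an adjusted p of 0.0449 in a range of 0.0449 to 0.21 over 14 alternatives. Its partner Arnt was at 10.98, 12.04 and 10.5 FPKM in the CL rats and at 12.3, 12.5 and 10.7 FPKM in the FL rats. Arnt values overlapped between groups, and the log2 difference of 0.08 (SE 0.12, adjusted p = 0.655) turned negative with median scaling and quantile normalization. The level of Ahr was 2.87, 1.47 and 1.9 times that of Arnt in the CL rats and 0.921, 0.93 and 1.7 times in the FL rats, so it exceeded Arnt in every CL rat and in FL12.

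The list of Ahr partners and chaperones held 6 genes that passed the filter. Of these, 0 passed the limma test in either direction, and 0 did so at an unadjusted p under 0.05. The median difference of 0.11, against 0.29 over all genes, turned negative with median scaling and quantile normalization. The most abundant member was Hsp90ab1, which encodes a cytosolic chaperone, and Arnt2 and Ahrr were under the filter at no more than 0.11 FPKM in any rat.

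Nr1h4 was at 55.2, 65.3 and 49.2 FPKM in CL rats 5, 6 and 7 and at 64.7, 52.9 and 54.9 FPKM in FL rats 2, 5 and 12. Nr1h3 was at 53.7, 60.6 and 48.8 and 58.6, 67.5 and 61.5 FPKM in the same order of rats. Rxra was at 62.1, 68.5 and 58.2 FPKM in the CL rats and 79.5, 59.1 and 58.7 FPKM in the FL rats. For all 3 genes the groups overlapped, with CL6 highest for Nr1h4, FL2 for Rxra and FL5 for Nr1h3. The 95% limits of the log2 difference ran from -0.31 to 0.36 for Nr1h4, -0.09 to 0.50 for Nr1h3 and -0.30 to 0.40 for Rxra, and the adjusted p-values were 0.906, 0.282 and 0.829. These limits do not show that the levels were equal, but they exclude a 2-fold change on the unscaled values.

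Nr1i2 was at 31.0, 28.6 and 28.9 FPKM in CL rats 5, 6 and 7 and at 33.1, 34.1 and 34.7 FPKM in FL rats 2, 5 and 12. Every FL rat was above every CL rat, and the spread within each group was narrow. This gave a log2 difference of 0.20 (SE 0.10, adjusted p = 0.185) and did not pass the test, and with median scaling it was -0.02. Nr1i3 was at 14.1, 10.8 and 10.2 FPKM in the CL rats and at 11.6, 17.7 and 23.9 FPKM in the FL rats. FL12 and FL5 were above all CL rats, and FL2 lay within the CL range. The log2 difference of Nr1i3 was 0.55 (SE 0.25, adjusted p = 0.163) and did not pass either, although it did without FL2, at 0.82 with an adjusted p of 0.027 in a range of 0.027 to 0.399 over 14 alternatives.

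Ppara was at 34.8, 18.96 and 23.8 FPKM in CL rats 5, 6 and 7 and at 18.3, 24.9 and 42.01 FPKM in FL rats 2, 5 and 12. The range of the FL rats enclosed that of the CL rats, with FL12 highest and FL2 lowest. Between the groups the log2 difference was 0.10 (SE 0.32, adjusted p = 0.850), with wide 95% limits of -0.64 to 0.83. Pparg, the adipogenic PPAR, was at 0.67, 1.84 and 1.1 FPKM in the CL rats and at 0.35, 1.59 and 1.03 FPKM in the FL rats. CL6 and FL5 were the highest and FL2 the lowest, and the groups overlapped almost fully. The log2 difference of -0.35 (SE 0.52, adjusted p = 0.653) had 95% limits of -1.55 to 0.84 and was positive, at 0.19, without FL2, and the lower limit reaches beyond a 2-fold change.

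**Figure D2:**
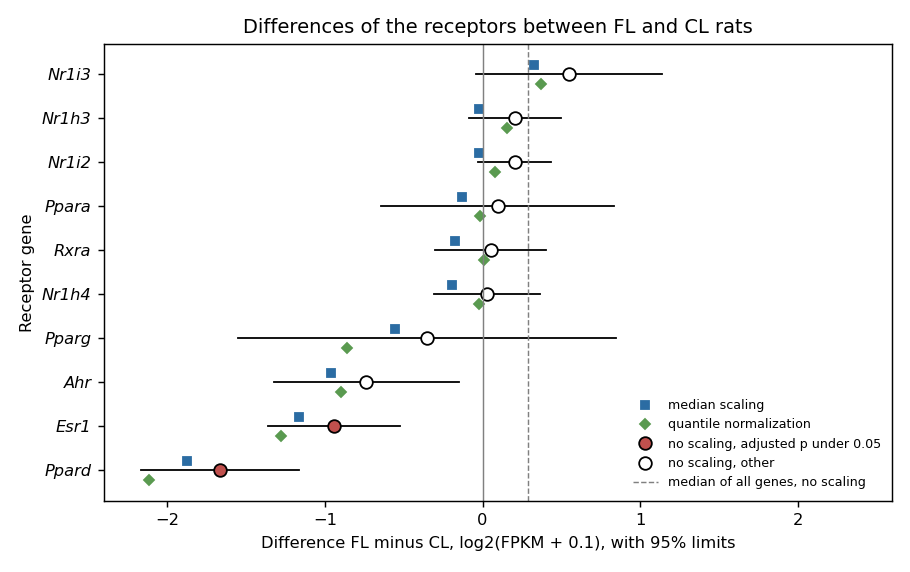
Difference of each receptor between 3 FL and 3 CL rats on log2(FPKM + 0.1), with 95% limits as lines, filled circles where the adjusted p was under 0.05, and squares and diamonds for median scaling and quantile normalization. Ppard and Esr1 are filled, Ahr lies below 0 without passing, and the squares of Nr1h4, Nr1h3, Nr1i2, Ppara and Rxra lie below 0 while their circles lie above.

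Other nuclear receptors were compared over 30 rows that passed the filter, 2 of them with the symbol Nr3c1. Of these, 9 rose and 2 fell, with a median difference of 0.16 against 0.29 over all genes. With median scaling the counts were 5 and 2, with quantile normalization 5 and 3, and the median turned negative, to -0.06 and -0.10. Only 5 rose in the fits without CL7 or FL5, and 0 or 1 fell in the fits without 1 rat. The largest increases among the called genes were those of Nr1d1 and Nr1d2, the heme-binding REV-ERB repressors of the circadian clock. Nr1d1 was at 6.38, 2.72 and 3.45 FPKM in CL rats 5, 6 and 7 and at 25.3, 32.98 and 15.7 FPKM in FL rats 2, 5 and 12. The lowest FL value was above the highest CL value, and the log2 difference was 2.56 (SE 0.35, adjusted p = 0.00491). For Nr1d2 it was 1.59 (SE 0.22, adjusted p = 0.00490), also without overlap. Rora, which encodes an activator that competes with the REV-ERB proteins for the same DNA elements, was among the genes that fell, with a log2 difference of -0.59 (SE 0.13, adjusted p = 0.0223). Its call was lost in 4 of 14 alternatives, among them the fits without CL6, CL7 or FL5, with an adjusted p of up to 0.0813.

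Among close relatives of the receptors, Rxrg and Esrra rose, whereas Nr1h2 and Rxrb did not pass the test. Rxrg differed by 0.65 (SE 0.16, adjusted p = 0.0319), a call lost in 7 of 14 alternatives, both scalings and the fits without CL6, CL7, FL5 or FL12 included, with an adjusted p of up to 0.204. Esrra, an orphan relative of Esr1, differed by 0.91 (SE 0.15, adjusted p = 0.00912) and was called in 14 of 14. Nr1h2 (LXR beta) was at 9.3, 10.9 and 10.04 FPKM in the CL rats and 12.5, 11.03 and 11.5 FPKM in the FL rats. The FL rats were all slightly above the CL rats, but the log2 difference of 0.21 (SE 0.12, adjusted p = 0.229) turned negative with both scalings. Rxrb was at 1.86, 2.16 and 1.55 and 1.74, 2.12 and 2.31 FPKM in the same order of rats, with overlapping groups and an adjusted p of 0.622. Hnf4a, a nuclear receptor that maintains hepatocyte identity and the most abundant gene of the list, was at 125, 119 and 131 FPKM in CL and 108, 109 and 108 FPKM in FL. All FL rats were below all CL rats for Hnf4a, with a log2 difference of -0.21 (SE 0.12, adjusted p = 0.239). The orphan receptor Nr0b2 (SHP) is given with the Nr1h4 targets.

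Among 18 coactivators and corepressors, 4 rose and 2 fell, with a median of 0.25. With either scaling 1 was called higher and 3 lower. Hdac3 and Ep300 were among the genes that rose, but their calls were lost in 7 and 8 of 14 alternatives, both scalings included, with adjusted p-values up to 0.115 and 0.371. Only 1 gene rose in the fits without CL6, FL5 or FL12, 2 without CL7 and 6 without FL2. The largest increases were those of Ppargc1b, a coactivator of mitochondrial genes, and Ncoa3, a histone acetyltransferase that binds ligand-loaded receptors. Ncoa3 was at 2.8, 2.91 and 2.73 FPKM in the CL rats and at 4.93, 6.14 and 5.3 FPKM in the FL rats. The groups were well apart, and the log2 difference was 0.93 (SE 0.14, adjusted p = 0.00592). Ppargc1b differed by 0.99 (SE 0.29, adjusted p = 0.0479), and this call was lost in 8 of 14 alternatives, both scalings and the fits without CL5, CL6, FL5 or FL12 among them. Lpin1, a phosphatidate phosphatase that also coactivates Ppara, was at 38.3, 36.6 and 40.9 FPKM in CL rats 5, 6 and 7 and at 21.9, 22.5 and 20.8 FPKM in FL rats 2, 5 and 12. Each group was tight and the FL rats were all lower, with a log2 difference of -0.83 (SE 0.10, adjusted p = 0.00414). The corepressor gene Nrip1 fell by 0.61 on the log2 scale (SE 0.12, adjusted p = 0.0154), a call lost without CL6 or without FL5, with an adjusted p of up to 0.0577.

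Genes that Nr1h4 is known to activate showed 1 increase and 2 decreases among 9 tested, with a median of -0.30. Nr0b2, the repressor through which Nr1h4 restrains bile acid synthesis, was at 9.19, 2.51 and 1.46 FPKM in CL rats 5, 6 and 7 and at 12.9, 20.6 and 9.2 FPKM in FL rats 2, 5 and 12. CL5 was far above the other CL rats and within 0.01 FPKM of FL12, the lowest FL rat. The log2 difference of 2.02 (SE 0.60, adjusted p = 0.0519) did not pass, but it did without CL5 (adjusted p = 0.0138) and with a filter at a mean of 1 FPKM, in a range of 0.0138 to 0.159. Abcb11, the bile salt export pump, was at 122, 113 and 91.5 FPKM in the CL rats and at 91.3, 90.3 and 82.5 FPKM in the FL rats. The FL rats were all below the CL rats, with FL2 just under CL7, and the log2 difference of -0.30 (SE 0.14, adjusted p = 0.178) did not pass. The increase was that of Pltp, a phospholipid transfer protein, at 1.25 (SE 0.17, adjusted p = 0.00496). The decreases were those of Baat, which conjugates bile acids to taurine and glycine, at -0.71 (SE 0.19, adjusted p = 0.0365), and of Apoc2, a lipoprotein lipase cofactor, at -0.67 (SE 0.19, adjusted p = 0.0490). Both of these calls were lost with quantile normalization and without any of CL5, CL6, CL7, FL5 or FL12, with adjusted p-values up to 0.125 and 0.139. Baat passed in 7 of 14 alternatives and Apoc2 in only 4. Apoc2 was also lost with pseudocounts of 1 and 0.01 and with no trend.

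Of the 3 genes that Nr1h4 signalling is known to repress, 1 rose and 0 fell in limma, with 2 higher and 0 lower at an unadjusted p under 0.05. In the limma fit without FL12, 2 rose, as Cyp8b1 passed there (adjusted p = 0.011, against 0.11 with all rats). Cyp7a1, the rate-limiting enzyme of bile acid synthesis, was at 51.1, 26.97 and 29.4 FPKM in CL rats 5, 6 and 7 and at 96.3, 89.2 and 202 FPKM in FL rats 2, 5 and 12. FL12 was the highest rat, and the groups did not overlap. The log2 difference was 1.80 (SE 0.35, adjusted p = 0.0134), and the call was lost without CL7, at an adjusted p of 0.0573 in a range of 0.0109 to 0.0573.

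Nr1h3 targets showed 5 increases and 2 decreases among 13 genes, with a median of 0.26, close to the 0.29 of all genes. The decreases were the largest changes of the list and fell on both subunits of the canalicular sterol exporter. Abcg5 was at 6.7, 6.32 and 4.02 FPKM in CL rats 5, 6 and 7 and at 0.5, 1.17 and 1.67 FPKM in FL rats 2, 5 and 12. Abcg8 was at 3.61, 2.56 and 1.41 FPKM in the CL rats and at 0.09, 0.33 and 0.29 FPKM in the FL rats. For both genes CL7 was the lowest CL rat and FL2 the lowest FL rat, and no FL value reached the CL range. The log2 differences were -2.35 (SE 0.39, adjusted p = 0.00837) for Abcg5 and -2.96 (SE 0.43, adjusted p = 0.00544) for Abcg8, and both calls were kept in 14 of 14 alternatives.

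The 5 increases of that list were those of Abca1, Abcg1, Lpl, Pltp and Mylip. With either scaling there were 4 increases, and without CL7 there were 3. For Mylip the call was lost in 7 of 14 alternatives, both scalings and the fits without CL5, CL6, CL7, FL5 or FL12 included, with an adjusted p of up to 0.207. Abca1, which loads cholesterol onto apolipoprotein A-I, was at 19.9, 16.4 and 15.2 FPKM in CL and 25.6, 38.3 and 32.7 FPKM in FL. The groups did not overlap, and the log2 difference was 0.89 (SE 0.17, adjusted p = 0.0132), a call lost without CL7 at an adjusted p of 0.0568 in a range of 0.00683 to 0.0568. Lpl, the lipoprotein lipase, was at 3.39, 2.86 and 3.0 FPKM in the CL rats and at 8.73, 13.8 and 24.5 FPKM in the FL rats. CL rats were close together, whereas FL12 was well above FL2, and the log2 difference was 2.18 (SE 0.32, adjusted p = 0.00595). Abcg1, a cholesterol exporter, differed by 1.39 (SE 0.18, adjusted p = 0.00437). Srebf1, the lipogenic transcription factor, was at 20.1, 25.8 and 20.9 FPKM in CL and 21.2, 17.4 and 50.5 FPKM in FL. Only FL12 stood above the CL range for Srebf1, and it did not pass the test (adjusted p = 0.628).

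The drug-metabolism genes that Nr1i2 and Nr1i3 are known to induce showed 3 increases and 4 decreases among 18 tested, with a median of -0.20. Of all genes tested, 16.9% were called higher and 1.94% lower. With median scaling the counts of this list were 1 and 6, and with quantile normalization 0 and 5. Fits without 1 rat gave 0 to 4 increases, with 0 without FL5 or FL12, 1 without CL5, CL6 or CL7 and 4 without FL2, and 3 or 4 decreases. The row with the symbol Cyp2b1 (ENSRNOG00000033680), the classical inducible target of Nr1i3, was at 142, 159.7 and 151 FPKM in CL rats 5, 6 and 7 and at 15.4, 36.8 and 28.5 FPKM in FL rats 2, 5 and 12. This row is annotated to chromosome 7 and that of Cyp2b2 to chromosome 1, so its identity as Cyp2b1 is uncertain. The CL rats were close together and every FL rat was far below them. On the log2 scale the difference was -2.57 (SE 0.28, adjusted p = 0.00288). The 4 decreases were those of Cyp2b1, Cyp2b2, Cyp3a18 and, the largest, a row with the symbol Cyp3a9 (ENSRNOG00000046643), at 16.7, 14.4 and 13.1 FPKM in the CL rats and 0.92, 1.08 and 0.31 FPKM in the FL rats. No FL rat came near the CL range, and the log2 difference was -4.22 (SE 0.37, adjusted p = 0.00165). For Cyp3a18 the call was lost in 4 of 14 alternatives, those without CL5, CL6, CL7 or FL12, with an adjusted p of up to 0.0687. A second row with the symbol Cyp3a9 (ENSRNOG00000001379) was at 4.25, 3.91 and 4.27 and 4.62, 4.9 and 6.82 FPKM and did not pass. The Cyp2b and Cyp3a genes have near-identical relatives, and reads that match several of them are not uniquely mapped and would be left out, so values of single members are uncertain. Cyp3a23/3a1, the reference target of Nr1i2, was at 10.5, 5.89 and 8.58 FPKM in CL and 5.08, 5.83 and 4.22 FPKM in FL. All FL rats were below all CL rats. The log2 difference of -0.68 (SE 0.22, adjusted p = 0.0673) did not pass, but it did with median scaling, with quantile normalization and without CL6, in a range of 0.0329 to 0.188.

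The increases of that list were those of the transporters Abcc3 and Abcb1a and of Por, the electron donor of the P450 enzymes. Abcc3, which carries bile salts and glucuronides into blood, was at 2.13, 2.83 and 1.06 FPKM in CL rats 5, 6 and 7 and at 4.01, 10.2 and 18.4 FPKM in FL rats 2, 5 and 12. FL2 was the lowest FL rat and still above all CL rats. This gave a log2 difference of 2.23 (SE 0.54, adjusted p = 0.0280), and the call was lost in 6 of 14 alternatives, quantile normalization and the fits without CL5, CL7, FL5 or FL12 included, with an adjusted p of up to 0.0987. Abcb1a, a drug efflux pump, differed by 1.06 (SE 0.25, adjusted p = 0.0253) and was lost in 7 of 14, both scalings and the fits without CL6, CL7, FL5 or FL12 included, with an adjusted p of up to 0.0867. Por was lost in 6 of 14, both scalings and the fits without CL5, CL6, FL5 or FL12, with an adjusted p of up to 0.0714. The summed level of the 19 rows of the list was 1947, 1898 and 1623 FPKM in the CL rats and 891, 1741 and 1941 FPKM in the FL rats. FL2 was far below every other rat in this sum, and the most abundant gene was Ephx1, the microsomal epoxide hydrolase. In the sums without Ephx1, also chosen after seeing the data, all FL rats were below all CL rats, at 1475, 1227 and 1153 FPKM in CL and 625, 867 and 916 FPKM in FL.

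Ppara targets showed 7 increases and 3 decreases among 25 rows, with a median of 0.25. With median scaling the counts were 1 and 5, and with quantile normalization 1 and 2. Only 1 to 3 rose in the fits without CL5, CL6, CL7, FL5 or FL12, and 5 fell without FL2. The reference gene Cpt1a, which admits fatty acids to mitochondria, was at 73.98, 41.2 and 50.4 FPKM in CL rats 5, 6 and 7 and at 128, 86.5 and 50.04 FPKM in FL rats 2, 5 and 12. FL2 was the highest rat and FL12 lay within the CL range, and Cpt1a did not pass the test (adjusted p = 0.235). Cyp4a1, a fatty acid omega-hydroxylase, was at 69.6, 54.9 and 48.9 FPKM in CL and 77.3, 94.95 and 131 FPKM in FL. All FL rats were above the CL rats, with a log2 difference of 0.79 (SE 0.22, adjusted p = 0.0411), but the call was lost in 9 of 14 alternatives, both scalings and the fits without CL5, CL6, CL7, FL5 or FL12 included, with an adjusted p of up to 0.144.

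A row with the symbol Cyp4a2 (ENSRNOG00000030154) had the largest decrease of the list, before Pdk4 and Fabp1, and went from 154, 129 and 86.7 FPKM in the CL rats to 24.2, 40.7 and 29.3 FPKM in the FL rats. The groups did not overlap, and the log2 difference was -1.96 (SE 0.25, adjusted p = 0.00437). A second row with this symbol (ENSRNOG00000009741) differed by -0.01 and did not pass, and either value is uncertain for the reason given for Cyp2b and Cyp3a. The largest increase was that of Fgf21, a fasting hormone, at 4.65, 1.86 and 3.11 FPKM in CL and 11.4, 5.01 and 17.8 FPKM in FL. FL5 was only slightly above CL5 for Fgf21, and the log2 difference of 1.71 (SE 0.47, adjusted p = 0.0412) was lost in 10 of 14 alternatives, both scalings and the fits without CL5, CL6, CL7, FL2 or FL12 included, with an adjusted p of up to 0.125. Vnn1, a pantetheinase, differed by 1.36 (SE 0.24, adjusted p = 0.0107) and was called in 14 of 14. For Fabp1 the call was lost in 7 of 14, quantile normalization and the fits without CL5, CL6, CL7, FL5 or FL12 included, with an adjusted p of up to 0.195.

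Targets of Pparg and Ppard showed 4 increases and 1 decrease among 11 tested, with a median of 0.24, and the counts were the same under both scalings, with 2 decreases without FL2. The increases were those of Fabp4, Aqp7, Lpl and G0s2. Fabp4, the fatty acid carrier of adipocytes and macrophages, was at 0.9, 1.85 and 1.48 FPKM in CL rats 5, 6 and 7 and at 7.27, 20.1 and 10.4 FPKM in FL rats 2, 5 and 12. Every FL rat was well above every CL rat, and the log2 difference was 3.00 (SE 0.38, adjusted p = 0.00425). Aqp7, a glycerol channel, was at 0, 0.08 and 0.08 FPKM in the CL rats and at 0.71, 1.93 and 2.04 FPKM in the FL rats. It was near or at 0 in all CL rats, with a log2 difference of 3.36 (SE 0.46, adjusted p = 0.00490) that depends on the pseudocount. Cd36, a fatty acid transporter, was at no more than 0.35 FPKM in any rat and did not pass (adjusted p = 0.0943).

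Pdk4, a kinase that shuts off pyruvate oxidation and a target of both Ppara and Ppard, was at 41.2, 41.6 and 35.9 FPKM in CL rats 5, 6 and 7 and at 23.7, 16.3 and 13.7 FPKM in FL rats 2, 5 and 12. FL12 was the lowest rat and the groups did not overlap. Between the groups the log2 difference was -1.17 (SE 0.20, adjusted p = 0.00861), kept in 14 of 14 alternatives. Angptl4, a lipoprotein lipase inhibitor and another Ppard target, was at 25.8, 33.6 and 21.1 FPKM in CL and 45.1, 15.1 and 8.19 FPKM in FL. FL2 was the highest rat and FL12 the lowest, so the FL rats enclosed the CL rats. Angptl4 did not pass (adjusted p = 0.476), but without FL2 it was lower with an adjusted p of 0.0281, in a range of 0.0281 to 0.987.

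Of the Esr1 targets, 3 were tested, and 1 rose, Ctsd, the lysosomal protease cathepsin D. Ctsd was at 49.3, 39.8 and 33.5 FPKM in CL rats 5, 6 and 7 and at 74.4, 120.3 and 87.9 FPKM in FL rats 2, 5 and 12. No FL rat was within the CL range, and the log2 difference was 1.19 (SE 0.21, adjusted p = 0.0101). The reference target Greb1 was under the filter, at no more than 0.16 FPKM in any rat, and so was Pgr, the progesterone receptor gene, at no more than 0.01 FPKM.

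Ahr targets showed 2 increases and 0 decreases in limma among 6 tested, and 2 and 0 at an unadjusted p under 0.05. The median difference was 0.48, against 0.29 over all genes. With a filter at a mean of 1 FPKM it was 0.11, with 1 increase among 5 tested, and without FL5 there were 3 increases. Nqo1, Tiparp and Gsta2 differed by 0.86, 0.11 and -0.15 and did not pass. Cyp1a1, the most inducible Ahr target, was at 1.17, 1.25 and 1.03 FPKM in CL rats 5, 6 and 7 and at 8.65, 3.62 and 5.91 FPKM in FL rats 2, 5 and 12. All FL rats were above the CL rats, FL2 the most. The log2 difference was 2.22 (SE 0.29, adjusted p = 0.00456). Cyp1b1, a relative expressed mainly outside hepatocytes, was at 0.02, 0.06 and 0.04 FPKM in the CL rats and at 0.32, 0.85 and 0.68 FPKM in the FL rats. Low in both groups, it was apart between them, with a log2 difference of 2.29 (SE 0.41, adjusted p = 0.0109). Cyp1a2, the abundant constitutive member, was at 353, 388 and 369 FPKM in CL and 520.5, 187 and 316 FPKM in FL. The FL rats enclosed the CL rats, FL2 above and FL5 and FL12 below, and Cyp1a2 did not pass (adjusted p = 0.639).

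**Figure D3:**
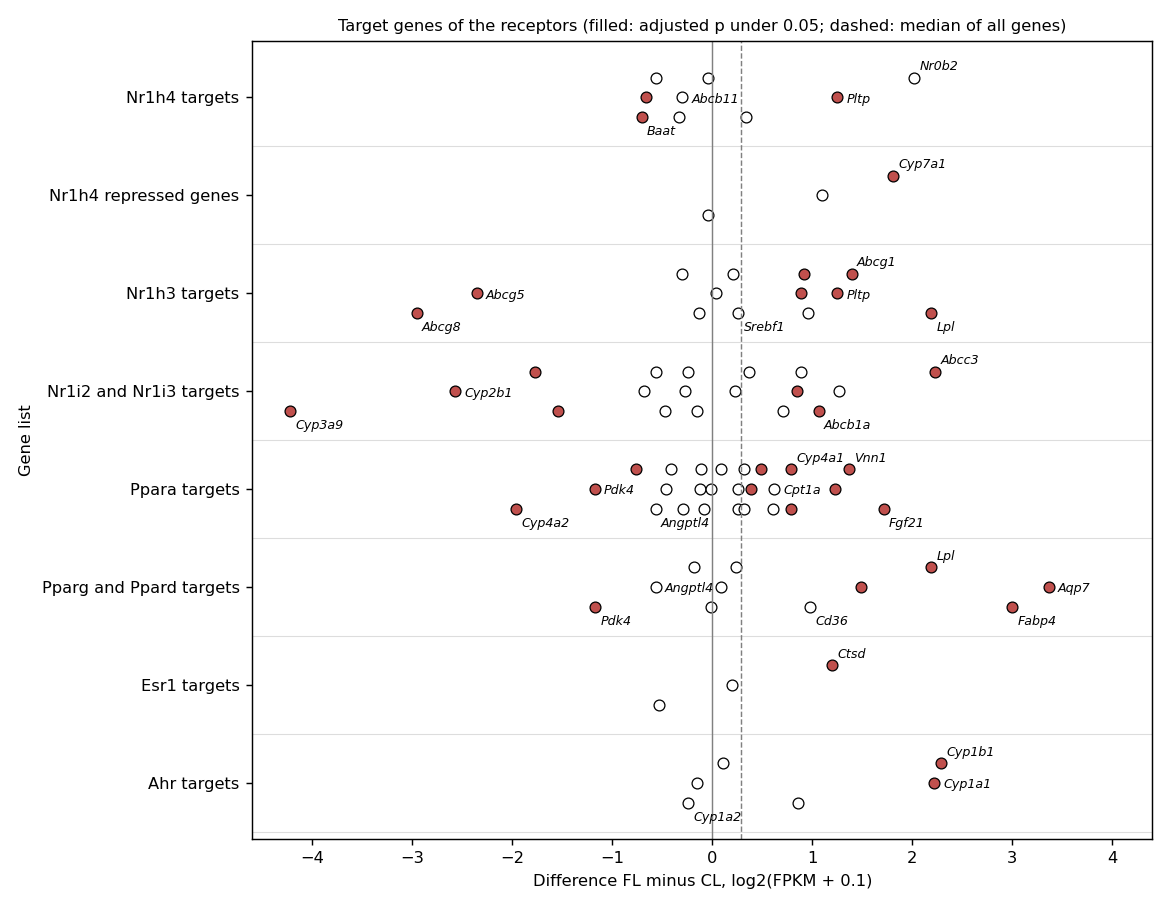
Difference between 3 FL and 3 CL rats on log2(FPKM + 0.1) for each tested target, a point per gene, grouped by receptor, filled where the adjusted p was under 0.05, with the median of all genes as a dashed line. Filled points lie on both sides of 0 in the lists of Nr1h4, Nr1h3, Nr1i2 and Nr1i3, Ppara, and Pparg and Ppard targets.

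RefSeq promoter windows of 300 bases, 250 before and 50 after the gene start on build GRCr8, were searched on both strands for the letters GCGTG, the core of the element bound by Ahr with Arnt, and AGGTCA, the half-site of many nuclear receptors. Of 33469 windows, 29.7% held GCGTG and 16.2% held AGGTCA. Windows were matched for 8 of the 10 receptors, as 9 windows, and for 7 of the Ahr targets, and Nr1h4, Ppard, Cyp1a1 and Aldh3a1 were not matched. GCGTG was in 2 of the 9 receptor windows, those of Ppara and Esr1, and in 6 of the 7 Ahr target windows. It was also in 5 of 10 Nr1h4 target windows, 6 of 19 of Nr1i2 and Nr1i3 targets and 7 of 24 of Ppara targets. AGGTCA was in 0 of the 9 receptor windows and 2 of the 7 Ahr target windows. In the other 3 lists, in the same order, AGGTCA was in 2 of 10, 6 of 19 and 5 of 24 windows. A match describes letters only, and whether a factor binds there was not tested.

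Cyp1b1, an Ahr target that rose from near 0, is shown for its GCGTG matches, in capitals (the first reads CACGC, the same letters on the other strand). The 250 bases before its start, chr6:21094315-21094564 on the plus strand, held 2 matches. Abcg5 and Abcg8, which fell together, start 205 bases apart on opposite strands, and the stretch between their starts, chr6:15717731-15717935 on the plus strand, is shown because it lies upstream of both. It held 0 matches to AGGTCA.
Cyp1b1: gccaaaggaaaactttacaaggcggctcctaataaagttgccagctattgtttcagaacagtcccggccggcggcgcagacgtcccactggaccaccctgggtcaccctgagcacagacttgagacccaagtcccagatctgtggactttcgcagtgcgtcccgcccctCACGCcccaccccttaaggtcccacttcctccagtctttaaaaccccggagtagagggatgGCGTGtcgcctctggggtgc
Abcg5 and Abcg8: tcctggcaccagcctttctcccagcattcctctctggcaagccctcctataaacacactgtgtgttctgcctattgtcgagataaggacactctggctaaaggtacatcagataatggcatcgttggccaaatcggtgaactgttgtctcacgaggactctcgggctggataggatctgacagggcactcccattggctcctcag

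Markers of cells other than hepatocytes also differed between the groups. Of 10 stellate cell or myofibroblast markers tested, 6 rose and 0 fell. Their summed level was 82.9, 88.9 and 81.6 FPKM in CL rats 5, 6 and 7 and 206, 549.8 and 502 FPKM in FL rats 2, 5 and 12. FL2 had the lowest sum of the FL rats, and all FL sums were above the CL sums. The most abundant, the collagen gene Col3a1, was at 46.5, 51.8 and 48.7 FPKM in CL and 140.5, 342 and 339 FPKM in FL, a log2 difference of 2.37 (SE 0.32, adjusted p = 0.00490). Of 10 macrophage markers, 6 rose and 0 fell, or 4 and 0 with either scaling, and the sum was 153, 152 and 151 FPKM in the CL rats and 330.2, 320.2 and 211 FPKM in the FL rats. FL12 had the lowest macrophage sum of the FL rats, and its value of the most abundant marker, the Kupffer cell lectin Clec4f, was 26.3 FPKM against 66.6 in FL2 and 57.4 in FL5. No marker of either list was at 0 in every rat, and 1 stellate marker, Col1a2, was under the filter.

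Cholangiocyte markers summed to 5.75, 10.6 and 6.32 FPKM in the CL rats and 12.7, 68.7 and 42.4 FPKM in the FL rats, where 1 of 6 rose, Spp1, the most abundant, at a log2 difference of 4.53 (SE 0.85, adjusted p = 0.0119). That call was lost without CL7, at an adjusted p of 0.0508, and 2 of 6 were called without FL2. The sums without Spp1, chosen after seeing the data, overlapped, at 5.38, 7.75 and 5.58 FPKM in CL and 5.38, 8.06 and 11.3 FPKM in FL. The keratins that define cholangiocytes, Krt7 and Krt19, differed by -0.82 and -0.01 and did not pass. Epcam, Sox9 and Cftr went the other way, at 0.33, 1.07 and 1.46, and did not pass either. The median difference of the 6 markers was 0.70. Endothelial markers summed to 73.7, 72.2 and 64.8 and 88.9, 75.5 and 83.4 FPKM, with 2 of 6 higher (Stab2 and Vwf), 0 lower and Kdr the most abundant. The call of Stab2 was lost without CL7, at an adjusted p of 0.0563, and that of Vwf in 8 of 14 alternatives, both scalings and the fits without CL5, CL6, CL7, FL5 or FL12 included, with an adjusted p of up to 0.0992. Lymphocyte markers summed to 1.92, 1.51 and 1.92 and 3.06, 4.69 and 1.85 FPKM, with 0 of 5 called in limma, 0 at an unadjusted p under 0.05 and Cd8a the most abundant. The lymphocyte sums were small and overlapped between the groups.

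Adipocyte markers summed to 12.1, 15.7 and 13.6 FPKM in CL rats 5, 6 and 7 and 24.3, 34.4 and 22.9 FPKM in FL rats 2, 5 and 12, with 1 of 3 higher, Fabp4, and Cidec the most abundant. Of the markers that define adipocytes, Plin1 was at 0 in all rats but FL5, at 0.01 FPKM, and Adipoq was at no more than 0.74 FPKM and did not pass. Cycling cell markers summed to 2.19, 4.01 and 2.47 and 3.05, 14.7 and 12.5 FPKM, with 1 of 4 higher, Mki67, the most abundant, a call lost in 11 of 14 alternatives, both scalings and the fits without CL5, CL6, CL7, FL5 or FL12 included. Without FL2 all 4 were called higher. In this sum FL2 lay within the range of the CL rats. What these cells contribute to the differences of Ppard, Esr1 and the target genes was not tested.

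Clock genes moved with the group as well. Of 10 genes that peak with Dbp, 9 rose and 0 fell, with a median of 2.16, and of 6 genes of the opposite phase, 0 rose and 5 fell, with a median of -1.26. Dbp, an output transcription factor of the clock, was at 0.46, 0.91 and 0.81 FPKM in CL rats 5, 6 and 7 and at 25.6, 27.1 and 31.8 FPKM in FL rats 2, 5 and 12. Among the genes that fell were Arntl, Npas2, Cry1 and Nfil3. The call of Nfil3 was lost in 6 of 14 alternatives, with an adjusted p of up to 0.0877, and only 3 genes of the opposite list fell in the fits without CL5, CL6, CL7, FL5 or FL12, where both scalings gave 6. Arntl (BMAL1), the core activator, was at 12.4, 11.6 and 10.7 FPKM in the CL rats and at 3.71, 3.82 and 2.88 FPKM in the FL rats. Both genes were tight within groups and far apart between them, in opposite directions. The log2 differences were 5.13 (SE 0.23, adjusted p = 0.000126) for Dbp and -1.72 (SE 0.15, adjusted p = 0.00164) for Arntl. The sum of the Dbp list was 21.3, 17.9 and 20.4 FPKM in CL and 88.8, 98.2 and 102 FPKM in FL. Since the sources used here give no hour of sampling, a difference in clock phase and the treatment cannot be told apart for any receptor or target, and its part in the changes of Ppard, Esr1 and the target genes was not tested.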

How the data were processed

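Liver RNA of 6 rats was analysed from the gene table of FPKM values that the authors deposited. Per the study's methods, FASTX-Toolkit served the authors for trimming and TopHat2 for alignment, and FPKM came from uniquely mapped reads. The genome is given as GRCh38 in the sources, yet the table carries rat Ensembl identifiers, so the annotation build is uncertain. No coordinates of the table were used other than the chromosomes of the Cyp2b1 and Cyp2b2 rows. Columns were matched to rats by name, and 2 value columns that match no sample were not used. Differences were computed on log2(FPKM + 0.1) for the 14864 of 19616 genes that averaged 0.1 FPKM or more, with no further scaling, in limma 3.58.1 with a mean-variance trend (R 4.3.3), and adjusted by the Benjamini-Hochberg method. The code was first tested on simulated data. Summaries, motif searches and figures were made in Python 3.11.15. Other settings tried were pseudocounts of 1 and 0.01, no filter, a filter at a mean of 1 FPKM, median scaling, quantile normalization, no trend, a robust prior and leaving out each rat in turn.

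Named genes were all receptors, the 2 largest called increases and decreases of each list, reference targets and partners, Dbp, Nr1d1 and Arntl, the most abundant gene of each cell type list, and the 3 genes most correlated with each called receptor. Further genes named to complete a short count or to show a level near 0, such as Por, Fabp1 and Plin1, and the relatives Rxrg and Esrra were chosen after their values were seen, as were the marker and target sums without their most abundant gene. The members and lists were chosen with earlier results of these data known. Numbers of reads per rat are not held in FPKM. The commonest value above 0 among 114 genes of the U6 small nuclear RNA, which are of similar length, was 0.21, 0.32 and 0.25 FPKM in CL rats 5, 6 and 7 and 0.31, 0.28 and 0.31 FPKM in FL rats 2, 5 and 12. If that value stands for 1 read, CL5 was the deepest library and the relative depth of the others was 0.656 to 0.84. Genes listed at 0 or near it are therefore imprecise.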

Additional observations from a re-analysis of the deposited data

How the results depend on the processing

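Across 14 alternatives, the number of receptors higher in FL was 0, and that of receptors lower in FL 2, except with median scaling, where Ahr made it 3, and in fits that left out a rat, where the ranges were 0 to 1 and 1 to 2. Without FL2, Nr1i3 was called higher, and without CL7, Esr1 was not called. Genes higher in FL numbered 1301 with median scaling and 784 with quantile normalization, and genes lower in FL 533 and 532. Leaving out each rat gave 938 to 3198 genes higher and 121 to 338 lower. Both counts were below those of the main fit whenever a rat was left out, except without FL2, where they were 3198 and 338. The cause was not tested. Of 195 rows of listed genes outside the receptors, 77 were called, and 40 of these in every alternative that could be fitted. The other 37 were lost in at least 1. Of the 118 others, 31 were called in at least 1. No called difference changed sign.

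No paired analysis was possible because the groups share only 1 replicate number, 5, and nothing ties those rats. Groups of 3 rats, an unknown number of reads per rat and reads that match several members of a gene family limit the precision. For very abundant genes the trend gives wide errors, as for Alb, where the groups did not overlap and the adjusted p was 0.804.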

Other observations

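Retinoic acid receptor genes, chosen here after their values were seen, are partners of the same retinoid X receptors and sense retinoic acid, a derivative of the vitamin A that stellate cells store as retinyl ester. Rarg was at 0.95, 1.25 and 0.92 FPKM in CL rats 5, 6 and 7 and at 2.57, 2.92 and 3.05 FPKM in FL rats 2, 5 and 12. The groups were tight and did not overlap, and the log2 difference was 1.38 (SE 0.18, adjusted p = 0.00482), called in 14 of 14 alternatives. Rara was at 3.59, 4.43 and 3.8 FPKM in the CL rats and at 7.53, 6.45 and 5.38 FPKM in the FL rats. It rose by less, 0.69 (SE 0.16, adjusted p = 0.0250), and the call was lost in 5 of 14 alternatives, both scalings and the fits without CL5, CL7 or FL5, with an adjusted p of up to 0.208. Rarb, the most abundant of the 3 in CL liver, was at 6.24, 5.15 and 5.62 and 5.26, 3.9 and 6.51 FPKM in the same order of rats. Its groups overlapped and it did not pass (adjusted p = 0.628). Lrat, the enzyme that makes retinyl ester, was at 9.77, 8.77 and 7.18 FPKM in CL and 7.11, 8.91 and 8.33 FPKM in FL, with overlapping groups and an adjusted p of 0.758.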
